A study of Mus musculus with 6 samples.

Results

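The genes described were 10 mast cell genes taken by symbol: the granule proteases Cma1, Mcpt4, Tpsb2, Tpsab1 and Cpa3, the histamine-forming enzyme Hdc, the granule proteoglycan Srgn, the IgE receptor subunits Fcer1a and Ms4a2, and the interleukin-33 receptor Il1rl1. Every probe set that named one of them alone was taken. Of the 10 genes 9 had such a probe set, 12 probe sets in all among 45037 and among 18193 genes named on the array, while Il1rl1 was not analysed here. Skin from one back region was taken at e18.5 from 3 Get1 -/- mice and from 3 Get1 +/+ mice, 1 array each. Get1 is an earlier name of the grainyhead-like transcription factor gene Grhl3. The labels give the Get1 -/- alleles and the age, and they name no strain, sex, litter or targeted exon.

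Mast cells are dermal sentinel cells that arise from blood-forming precursors and mature in the skin under the Kit receptor and its ligand. They store granules of neutral proteases, histamine and serglycin proteoglycan, and they carry the high-affinity IgE receptor, whose crosslinking releases the granules. In mouse connective tissue mast cells, the type found in skin, the granule proteases are the chymases Cma1 (mMCP-5) and Mcpt4 (mMCP-4), the tryptases Tpsb2 (mMCP-6) and Tpsab1 (mMCP-7) and the carboxypeptidase Cpa3. Back skin holds these cells among many others, so in whole skin RNA fewer cells of a type and less RNA per cell cannot be told apart.

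Values are MAS5 signals in arbitrary units, which the authors scaled so that every array had a trimmed mean of 500. A signal belongs to its own probe set, so levels are compared between arrays and not between genes. Array medians ran from 137 to 152 in Get1 -/- skin and from 138 to 153 in Get1 +/+ skin. Correlations between arrays over the probe sets above the filter ran from 0.94 to 0.962 within a genotype and from 0.916 to 0.971 between genotypes. The Grhl3 probe set averaged 346 ± 88.5 in Get1 -/- skin and 694 ± 229 in Get1 +/+ skin (SD, n = 3 each), with no overlap and a limma adjusted p of 0.737. Whether it lies in the deleted part is not stated in the labels. Keratinocyte genes that define skin were present on all arrays, with a summed signal of 115080 to 132020 in Get1 -/- skin and of 135610 to 138560 in Get1 +/+ skin. With 3 arrays in a group, precision is limited throughout.

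Mast cell genes are known targets of the transcription factors Gata2 and Mitf, so the 250 bases before the annotated start were read for their motifs from RefSeq (build GRCm38.p6). The table held windows for 7 of the 9 measured genes, 8 windows in all because Srgn has more than 1 start. The GATA motif was searched on both strands as the word AGATAA, with AGATAG counted too, and likewise as TGATAA, with TGATAG counted too. It was found in 6 of the 8 windows, against 26.5% of 32851 windows of the same length. Those 6 belonged to Cma1, Mcpt4, Cpa3, Hdc, Fcer1a and Ms4a2, and the Srgn windows held none. The E-box letters that Mitf can read, CACGTG or CATGTG, were in 1 of the 8 windows, that of Fcer1a, against 17.6% of all windows, and overlapped no GATA match there. The grainyhead motif AACCNGTT on either strand was in 0 of the 8 windows, against 1.79% of all. A match is a description of letters, and no match says only that the letters are not in this window. The windows of both chymases, the carboxypeptidase and the receptor subunit Ms4a2 are shown, because they place the GATA letters, in capitals, in the genes that the values below describe. Each runs 5′ to 3′ along the gene's strand and ends at the base before the start. A match on the opposite strand appears as its reverse complement, as in Cma1. The capitals begin 79 bases before the start in Cma1, 103 in Mcpt4, 46 in Cpa3, and 224, 37 and 11 in Ms4a2.
Cma1, chr14:55944676-55944925, minus strand: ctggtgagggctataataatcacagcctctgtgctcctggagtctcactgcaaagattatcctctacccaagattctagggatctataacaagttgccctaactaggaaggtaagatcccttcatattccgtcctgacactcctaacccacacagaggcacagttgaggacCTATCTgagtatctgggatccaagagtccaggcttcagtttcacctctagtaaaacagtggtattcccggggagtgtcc
Mcpt4, chr14:56062311-56062560, minus strand: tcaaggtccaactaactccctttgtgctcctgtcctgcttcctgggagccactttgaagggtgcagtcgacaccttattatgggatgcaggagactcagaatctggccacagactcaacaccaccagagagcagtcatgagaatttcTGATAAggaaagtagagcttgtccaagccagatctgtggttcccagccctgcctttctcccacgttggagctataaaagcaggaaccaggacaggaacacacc
Cpa3, chr3:20242182-20242431, minus strand: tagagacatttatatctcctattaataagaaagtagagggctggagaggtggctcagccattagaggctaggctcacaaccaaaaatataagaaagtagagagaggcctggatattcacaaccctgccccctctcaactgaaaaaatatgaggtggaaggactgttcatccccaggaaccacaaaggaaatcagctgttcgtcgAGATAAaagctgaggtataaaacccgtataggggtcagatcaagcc
Ms4a2, chr19:11623720-11623969, minus strand: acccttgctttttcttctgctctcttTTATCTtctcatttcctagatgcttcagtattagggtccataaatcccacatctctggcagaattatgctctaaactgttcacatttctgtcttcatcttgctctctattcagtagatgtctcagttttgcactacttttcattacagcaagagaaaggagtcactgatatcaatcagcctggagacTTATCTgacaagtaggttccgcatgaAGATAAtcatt

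In Get1 -/- skin 0 of the mast cell genes passed the test against Get1 +/+ skin, although most had a higher mean log2 signal there. Of the 12 probe sets 9 lay above the filter, a mean log2 signal at or above the median over all probe sets, or 137 on the linear scale. Of these 9, 0 passed an adjusted p under 0.05 in limma, where 0.0266% of the 22519 probe sets tested did. At an unadjusted p under 0.05 there were 3 of 9, those of Tpsab1, Srgn and Ms4a2, against 6.72% of all probe sets tested in either direction and 2.97% in the higher direction. In 0 of the 12 did all Get1 -/- arrays lie above or below all Get1 +/+ arrays, while 4.63% of the probe sets tested lay wholly above and 6.51% wholly below. The log2 change was above 0 in 10 of the 12, and in 48.1% of all 45037. Its median over the 12 was 0.29, against -0.017 over all probe sets. With Get1 +/+ replicate 3 left out it was 0.08, and 7 of the 12 were above 0.

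**Figure D1:**
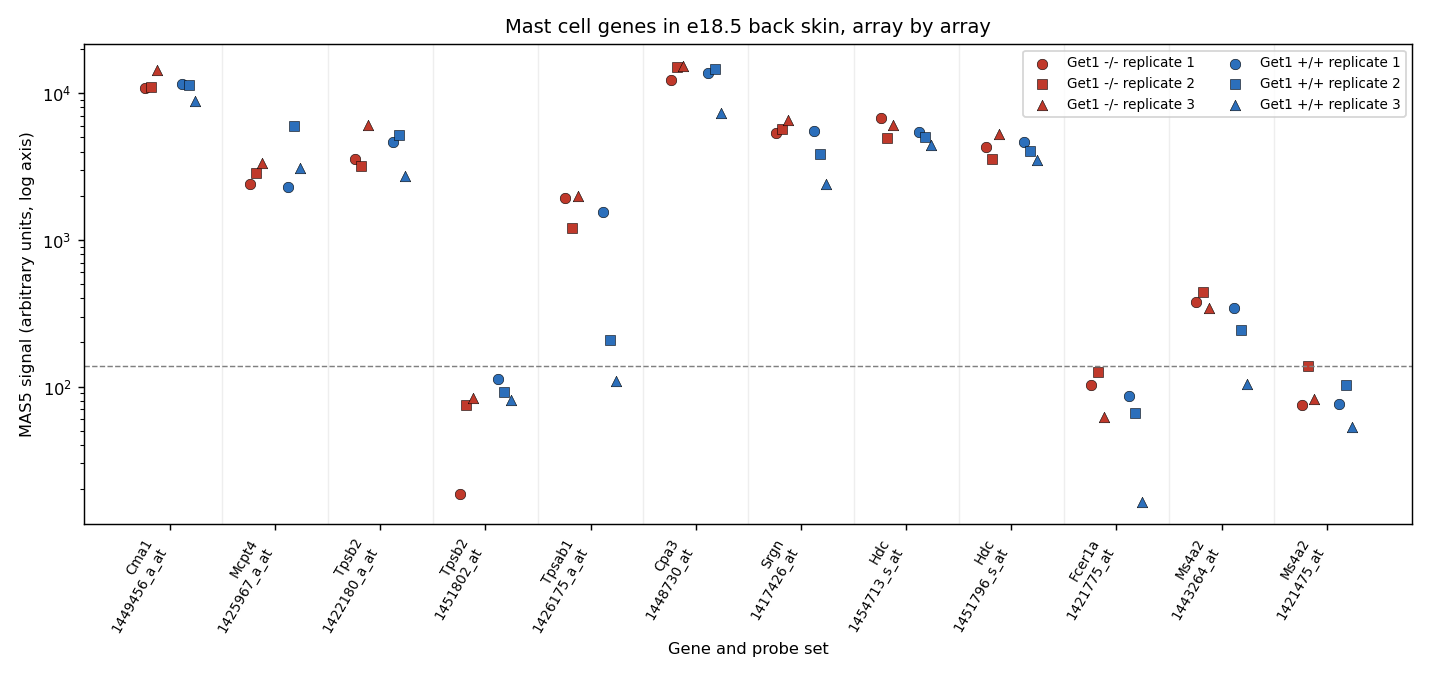
MAS5 signal (log axis) of the 12 mast cell probe sets on each array, Get1 -/- in red left of Get1 +/+ in blue, with a marker shape per replicate and a dashed line at the filter signal of 137. The genotypes overlap in every column, and in the Tpsab1 column Get1 +/+ replicates 2 and 3 sit at 209 and 109, below the other 4 arrays.

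Among the granule proteases, neither chymase gene passed the test. Cma1, an elastase-like chymase, had signals of 10850, 10987 and 14492 in Get1 -/- skin, against 11654, 11305 and 8919 in Get1 +/+ skin. The ranges overlapped, and the highest and the lowest array were 1.62-fold apart. The log2 change was 0.19 ± 0.16 (SE), with a 95% interval from -0.17 to 0.54 and a limma adjusted p of 0.839. It was 0.049 without Get1 -/- replicate 3 and 0.064 without Get1 +/+ replicate 3. Mcpt4, the mouse chymase closest in function to human chymase, had signals of 2419, 2863 and 3346 in Get1 -/- skin, against 2286, 5935 and 3115 in Get1 +/+ skin. Get1 +/+ replicate 2 read well above the other 5 arrays, which overlapped. Mcpt4 had a log2 change of -0.29 ± 0.31, with a 95% interval from -0.996 to 0.42 (adjusted p = 0.879, limma). It was 0.095 without that array and -0.59 without Get1 +/+ replicate 1.

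The carboxypeptidase Cpa3, which trims peptides and detoxifies venoms, had signals of 12345, 15004 and 15394 in Get1 -/- skin, against 13827, 14642 and 7282 in Get1 +/+ skin. Get1 +/+ replicate 3 read well below the rest, and the other 5 arrays overlapped. On the log2 scale Cpa3 differed by 0.32 ± 0.25 (adjusted p = 0.821, limma), and without that array it was -0.0049.

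The tryptase genes gave the smallest and the largest differences of the 9 probe sets above the filter. Tpsb2, the tryptase mMCP-6 that is stored with heparin, had signals of 3535, 3175 and 6029 in Get1 -/- skin, against 4649, 5231 and 2715 in Get1 +/+ skin, on its probe set above the filter. The ranges overlapped over most of their length. The log2 change was 0.012 ± 0.30, with a 95% interval from -0.66 to 0.69 and a limma adjusted p of 0.997. Its other probe set lay below the filter, at 18.3, 74.6 and 84.1 in Get1 -/- skin, against 113, 91.4 and 80.5 in Get1 +/+ skin, and did not follow the first.

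Tpsab1, the tryptase mMCP-7, had signals of 1932, 1209 and 1988 in Get1 -/- skin, against 1538, 209 and 109 in Get1 +/+ skin. Thus 4 arrays, Get1 +/+ replicate 1 among them, lay between 1209 and 1988, and the other 2, both Get1 +/+, lay far below. The means were 1710 ± 434 in Get1 -/- skin and 619 ± 798 in Get1 +/+ skin (SD, n = 3 each). The log2 change was 2.35 ± 0.80, with a 95% interval from 0.52 to 4.18 and an unadjusted p of 0.0174 (adjusted p = 0.737, limma). Leaving out Get1 +/+ replicate 1 gave 3.47 and an adjusted p of 0.0324, the only 1 of 15 alternatives over all arrays or with 1 left out in which the probe set passed. Leaving out Get1 +/+ replicate 3 gave 1.56 (adjusted p = 0.874). RefSeq annotates Tpsab1 of the C57BL/6J assembly as a transcribed pseudogene, and mice of that strain are known to lack mMCP-7 through a splice-site change, while the labels here name no strain.

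Srgn encodes serglycin, the proteoglycan core on which proteases and histamine are held in the granule, and it is also made by other blood and endothelial cells. Its signals were 5328, 5683 and 6554 in Get1 -/- skin, against 5511, 3860 and 2423 in Get1 +/+ skin. The Get1 -/- arrays lay close together, and Get1 +/+ replicates 2 and 3 lay below them. Srgn had a log2 change of 0.65 ± 0.26, with a 95% interval from 0.051 to 1.25 and an unadjusted p of 0.0366 (adjusted p = 0.737, limma). Without Get1 +/+ replicate 3 it was 0.34. Hdc, which makes histamine from histidine, had signals of 6756, 4944 and 6097 in Get1 -/- skin, against 5427, 5024 and 4407 in Get1 +/+ skin, on 1 of its probe sets. The ranges overlapped, with a log2 change of 0.25 ± 0.15 (adjusted p = 0.769, limma), or 0.15 without Get1 -/- replicate 1. The other Hdc probe set differed by 0.097 ± 0.18 (adjusted p = 0.937, limma), or -0.0499 without Get1 -/- replicate 3. Both Hdc probe sets spanned no more than 1.53-fold over the 6 arrays.

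Ms4a2, the beta subunit that amplifies signalling of the IgE receptor, had signals of 378, 442 and 343 in Get1 -/- skin, against 343, 243 and 104 in Get1 +/+ skin, on its probe set above the filter. Get1 -/- replicate 3 and Get1 +/+ replicate 1 were nearly equal, at 342.8 and 342.9, and Get1 +/+ replicate 3 stood lowest. This probe set had a log2 change of 0.91 ± 0.40, with a 95% interval from 0.0026 to 1.81 and an unadjusted p of 0.0495 (adjusted p = 0.737, limma). Without Get1 +/+ replicate 3 it was 0.42. The other Ms4a2 probe set lay below the filter, at 75.2, 137 and 81.7 in Get1 -/- skin, against 75.9, 103 and 53.3 in Get1 +/+ skin. Fcer1a, the subunit that binds IgE, also lay below the filter, with signals of 103, 126 and 61.9 in Get1 -/- skin, against 86.1, 66.4 and 16.3 in Get1 +/+ skin. No detection calls were used, so whether such dim probe sets lie above background is not known. In a fit without the filter the log2 changes of these dim probe sets were 1.04 for Fcer1a (unadjusted p = 0.147, limma), 0.34 for Ms4a2 (unadjusted p = 0.453) and -0.95 for Tpsb2 (unadjusted p = 0.151). Without Get1 +/+ replicate 3 the Fcer1a value was 0.30, without Get1 -/- replicate 2 the Ms4a2 value was 0.068, and without Get1 -/- replicate 1 the Tpsb2 value was -0.25.

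**Figure D2:**
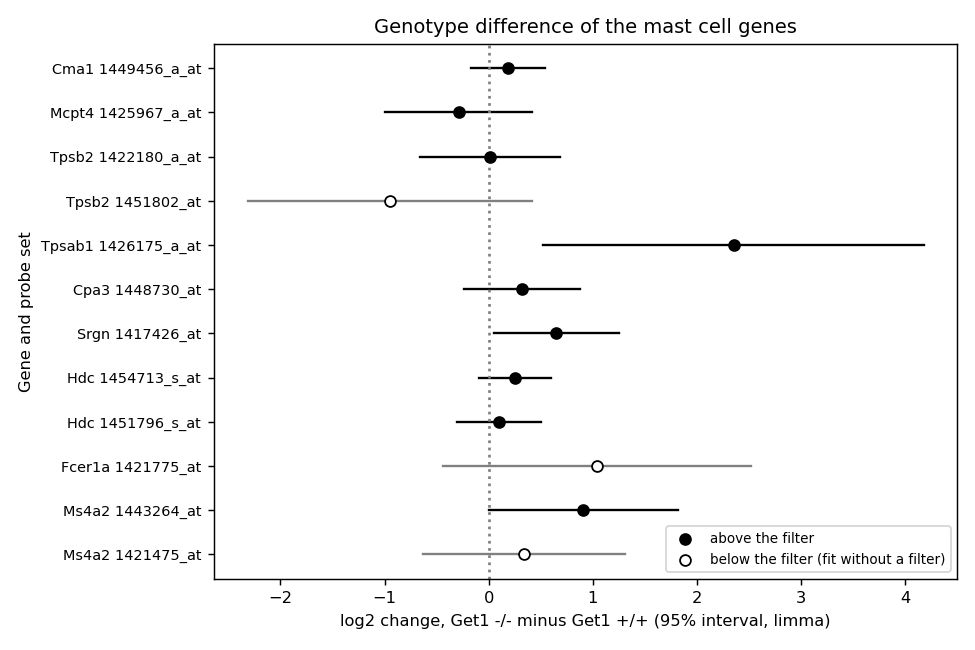
Log2 change (Get1 -/- minus Get1 +/+) of each mast cell probe set with its 95% limma interval, filled where the probe set lay above the filter and open where it did not. The intervals of Tpsab1, Srgn and 1 Ms4a2 probe set lie above 0, and their adjusted p was 0.737.

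A single array stood lowest in most of these probe sets. Get1 +/+ replicate 3 gave the lowest signal in 10 of the 12 probe sets, the exceptions being Mcpt4 and the dim Tpsb2 probe set, and in 8 of the 9 above the filter. It was the lowest array in 17.7% of all probe sets and in 21.1% of those above the filter. This array was also the highest in 24.7% of those above the filter, the largest share of any array, and in 0 of the 12. Its median deviation from the 6-array mean over the 12 probe sets was -0.62 on the log2 scale. On that measure the Get1 -/- arrays lay at -0.0032, 0.19 and 0.30, and the other Get1 +/+ arrays at 0.18 and 0.019. Get1 -/- replicate 3 gave the highest signal in 6 of the 12.

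**Figure D3:**
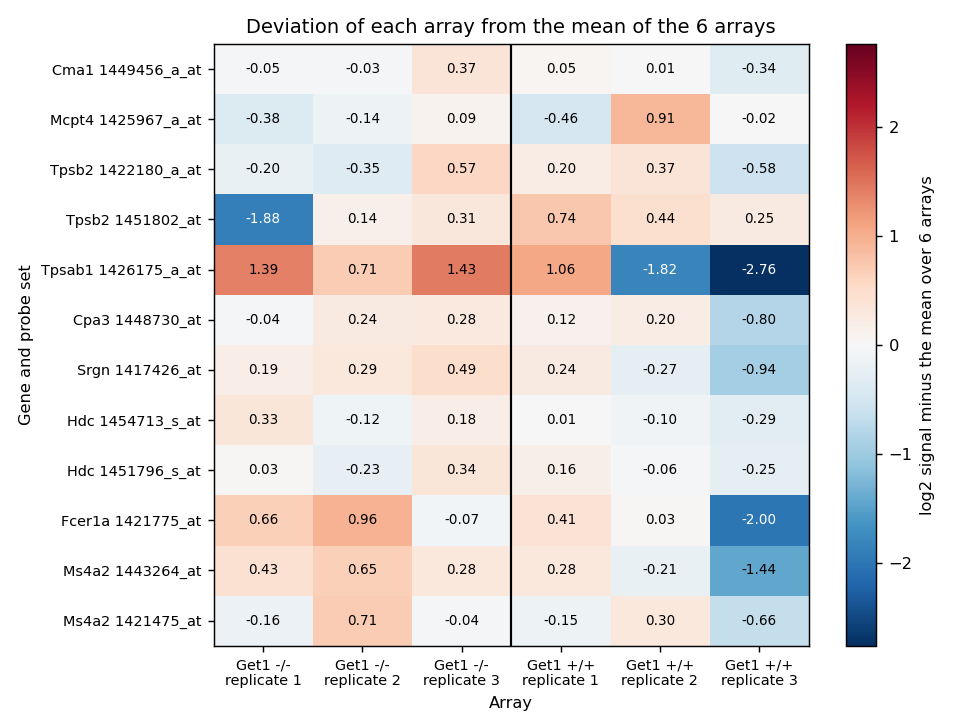
Log2 signal of each probe set on each array minus its mean over the 6 arrays, Get1 -/- arrays left of Get1 +/+ arrays. The column of Get1 +/+ replicate 3 is below 0 in 11 of 12 rows, down to -2.76 for Tpsab1, and the column of Get1 +/+ replicate 2 is low for Tpsab1 alone beyond -1.

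**Figure D4:**
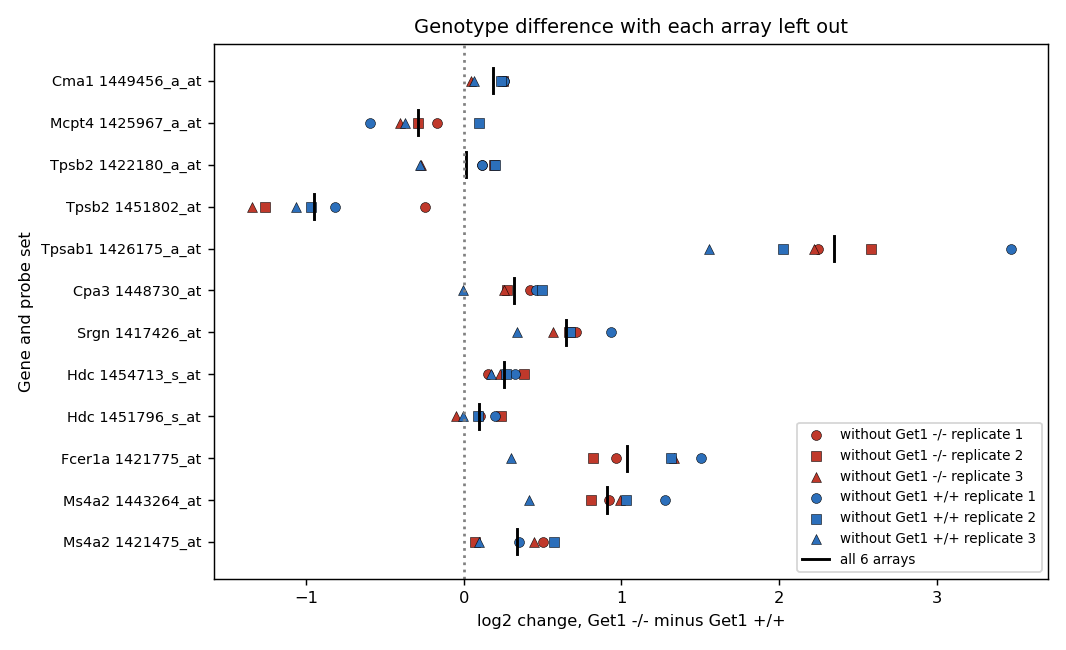
Log2 change (Get1 -/- minus Get1 +/+) of each probe set with all 6 arrays (bar) and with each array left out (markers, coloured by the genotype of the array left out). Without Get1 +/+ replicate 3 the changes of Cpa3, Srgn, Ms4a2 and Tpsab1 shrink to -0.0049, 0.34, 0.42 and 1.56.

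The arrays also differed in the beta-actin control, whose middle probe set read 18407 on Get1 -/- replicate 1 and 10118 and 13060 on the other Get1 -/- arrays, against 19025 and 19858 on Get1 +/+ replicates 1 and 2 and 10906 on replicate 3. Among the 3 arrays with a high actin control, of which 1 was Get1 -/-, the median change over the 12 probe sets was -0.049, with 5 above 0. Among the 3 with a low actin control, of which 1 was Get1 +/+, it was 0.84, with 10 above 0. Tpsab1 differed by 1.77 within the high set and by 3.83 within the low set, and Srgn by 0.21 and 1.33. These within-set values rest on a single array of a genotype each. In the low set that array was Get1 +/+ replicate 3, the lowest of all arrays in 10 of the 12 probe sets. The split therefore cannot tell the actin control apart from that array. The ratio of the 3′ to the 5′ actin signal, which rises as RNA degrades, was 1.44, 1.49 and 1.36 on the Get1 -/- arrays, against 1.35, 1.36 and 1.37 on the Get1 +/+ arrays, so Get1 -/- replicates 1 and 2 read highest. The same ratio for Gapdh was 0.844, 0.732 and 0.828 on the Get1 -/- arrays, against 0.81, 0.692 and 0.777 on the Get1 +/+ arrays. The part of the actin split and of these ratios in the mast cell values was not tested.

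Other genes linked to mast cells were read from 5 lists, which were not limited to genes of mast cells alone. Kitl, Fcer1g and Mitf are examples of genes also active in other cells, as given below. The counts over these lists are therefore not a separate measure of mast cells. Macrophage genes, read further below, were above 0 in 14 of 16 probe sets. The lists covered further proteases, receptors and signalling, mediator synthesis, transcription factors, and growth factors and cytokines. Of their 38 genes 34 had a probe set of their own and 18 had one above the filter. Of their 25 probe sets above the filter, 21 had a log2 change above 0 and 4 below, where 50.2% of all probe sets tested were above 0. The median of the 25 was 0.29, or 0.17 without Get1 +/+ replicate 2 and 0.20 without replicate 3, and 0 passed (limma). At an unadjusted p under 0.05 in limma there were 3, of which 2 were of Kitl and 1 of Fcer1g. Of all probe sets tested 6.72% were so in either direction and 2.97% in the higher direction. The 4 Kitl probe sets, all above 0, are among the 25. In 3 of the 25, those of Fcer1g, Lat2 and Mitf, all Get1 -/- arrays lay above all Get1 +/+ arrays, as in 4.63% of all probe sets tested.

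Tpsg1, a membrane-anchored tryptase of mast cells, was the 1 further protease with a probe set above the filter. It had signals of 75.7, 135 and 211 in Get1 -/- skin, against 231, 194 and 148 in Get1 +/+ skin. The ranges overlapped, and Get1 -/- replicate 1 was the lowest array. Its log2 change was -0.54 ± 0.39 (SE, adjusted p = 0.801, limma), or -0.16 without that array and -0.71 without Get1 +/+ replicate 3.

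Kit, the receptor on which mast cells depend, differed by 0.21 ± 0.17 and -0.069 ± 0.24 on its probe sets (adjusted p = 0.837 and 0.968, limma), where SE are given here and below. Without Get1 -/- replicate 1 the second was 0.13. Its ligand Kitl, made by keratinocytes, fibroblasts and endothelium, had signals of 3716, 4861 and 5047 in Get1 -/- skin, against 4578, 2082 and 2048 in Get1 +/+ skin, on 1 probe set. As with Tpsab1, Get1 +/+ replicate 1 lay among the Get1 -/- arrays and the other Get1 +/+ arrays lay below. That probe set differed by 0.74 ± 0.30 and another by 0.90 ± 0.38 (adjusted p = 0.737 each, limma). The remaining Kitl probe sets differed by 0.34 and 0.17. Without Get1 +/+ replicate 3 the 4 values were 0.54, 0.50, -0.091 and 0.13, and without Get1 -/- replicate 2 the last was -0.054. Get1 +/+ replicates 2 and 3 were the lowest pair of arrays in 3 of the 9 mast cell probe sets above the filter, in 7 of the 25 of the other lists, and in 13.9% of all tested, a count made after the values were seen.

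Fcer1g, the signalling chain that the IgE receptor shares with Fc receptors of macrophages, had signals of 1691, 1377 and 1531 in Get1 -/- skin, against 1361, 1131 and 1043 in Get1 +/+ skin. The genotypes did not overlap, and the log2 change of 0.38 ± 0.17 did not pass (adjusted p = 0.737, limma). Mitf, a transcription factor of mast cells and melanocytes, had signals of 971, 943 and 953 in Get1 -/- skin, against 866, 688 and 815 in Get1 +/+ skin. It differed by 0.28 ± 0.16 (adjusted p = 0.759, limma). Its other probe set lay below the filter, at 213, 108 and 118 in Get1 -/- skin, against 80.1, 87.2 and 17.4 in Get1 +/+ skin. The genotypes did not overlap there, as in 4.29% of all 45037 probe sets in that direction. Without the filter that log2 change was 1.49 ± 0.64 (adjusted p = 0.837, limma), or 0.74 without Get1 +/+ replicate 3. Gata2, which specifies the mast cell lineage, differed by 0.29 ± 0.22 and 0.18 ± 0.19 on its probe sets. The first was 0.12 without Get1 +/+ replicate 2, and the second 0.049 without Get1 -/- replicate 3. Mrgprb1, a receptor of the mast cell Mrgpr cluster, had signals of 310, 727 and 657 in Get1 -/- skin, against 670, 460 and 197 in Get1 +/+ skin, with overlap. Its log2 change was 0.43, and -0.069 without Get1 +/+ replicate 3. The prostaglandin D synthase Hpgds differed by 0.72 ± 0.53 and the monoamine transporter Slc18a2, which loads amines into vesicles, by 0.54 ± 0.37 (adjusted p = 0.802 and 0.793, limma). Both read lowest on Get1 +/+ replicate 3, and without it Hpgds was at 0.031 and Slc18a2 at 0.20. Btk, of the signalling list, differed by 0.73 ± 0.37 (adjusted p = 0.743, limma). It was 0.87 without Get1 +/+ replicate 3 and 0.30 without Get1 +/+ replicate 2. Alox5ap, of the mediator list, differed by 0.29 ± 0.19 (adjusted p = 0.792, limma). It was 0.28 without Get1 +/+ replicate 3 and 0.16 without Get1 -/- replicate 1.

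Il33, the alarm cytokine that activates mast cells, lay below the filter at 180, 218 and 146 in Get1 -/- skin, against 98.6, 54.1 and 80.3 in Get1 +/+ skin. All Get1 -/- arrays lay above all Get1 +/+ arrays, as in 4.29% of all 45037 probe sets. Without the filter its log2 change was 1.24 ± 0.36 (adjusted p = 0.837, limma). The other genes of its list apart from Kitl also lay below the filter, and they went both ways. Their log2 changes were 0.46 for Il4 and 0.22 for Tslp, against -0.93 for Il3, -0.87 for Il9, -0.46 for Il5 and -0.29 for Il13.

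**Figure D5:**
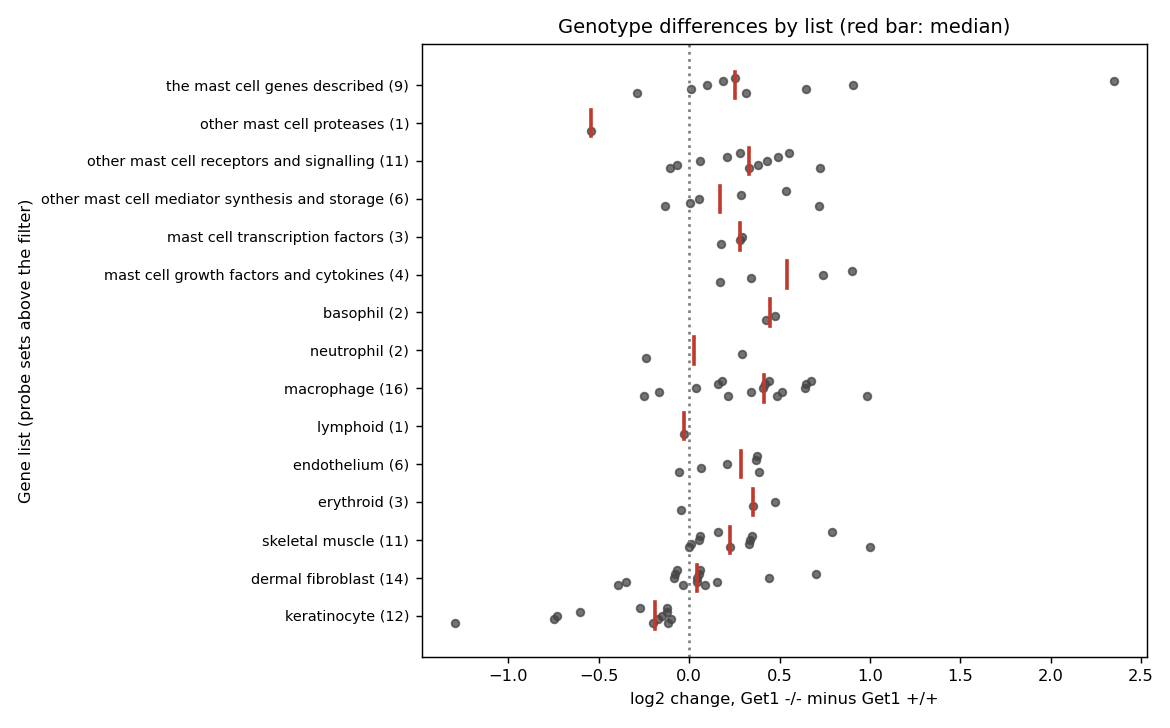
Log2 change (Get1 -/- minus Get1 +/+) of every probe set above the filter in the mast cell genes described, in the other mast cell lists and in lists of other cell types, with red bars at the medians and the number of probe sets in brackets. The macrophage median is 0.41, the fibroblast median 0.041 (-0.078 without Get1 +/+ replicate 3) and the keratinocyte median -0.19.

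Markers of other cell types were read beside the mast cell genes. Macrophage genes had 14 of 16 probe sets above 0, a median of 0.41 and a summed signal of 21891 to 24650 in Get1 -/- skin, against 15238 to 20670 in Get1 +/+ skin, and 0 passed (limma). At an unadjusted p under 0.05 in limma there were 7 of 16, all higher. Of all probe sets tested 6.72% were so in either direction and 2.97% in the higher direction. The 7 were of C1qa, C1qb, C1qc, Cd163, Mrc1 and Ptprc. The Csf1r probe sets differed by 0.18, 0.16 and 0.038, and Cd68 and Lyz2 were lower, at -0.25 and -0.17. In 5 of 16 all Get1 -/- arrays lay above all Get1 +/+ arrays, against 4.63% of all tested. Without Get1 +/+ replicate 3 the macrophage median was 0.43, and without Get1 +/+ replicate 2 it was 0.22. Ptprc, the surface phosphatase of all white blood cells, mast cells included, had signals of 788, 851 and 769 in Get1 -/- skin, against 553, 376 and 319 in Get1 +/+ skin. The genotypes did not overlap, and the log2 change was 0.99 ± 0.22 (adjusted p = 0.57, limma). Endothelial genes had 5 of 6 probe sets above 0, with a median of 0.29, or 0.16 without Get1 +/+ replicate 3. Skeletal muscle genes had 10 of 11 above 0, with a median of 0.23. That median became 0.033 when Get1 +/+ replicate 2 was left out and 0.36 when replicate 3 was. Dermal fibroblast genes had 8 of 14 above 0, with a median of 0.041 that turned to -0.078 without Get1 +/+ replicate 3 and to -0.0032 without Get1 -/- replicate 3. Keratinocyte genes had 12 of 12 below 0, with a median of -0.19. It was -0.25 without Get1 +/+ replicate 3 and -0.11 without Get1 -/- replicate 2. The part of these cells in the mast cell values was not tested.

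Of the basophil markers Cd200r3 and Il3ra each had a probe set above the filter, with a summed signal of 396 to 446 in Get1 -/- skin, against 200 to 430 in Get1 +/+ skin. Both read lowest on Get1 +/+ replicate 3, and their median log2 change was 0.45, or 0.16 without that array. The basophil protease gene Mcpt8 was below the filter, at 62.4, 21.8 and 70.8 in Get1 -/- skin, against 13.6, 19.2 and 28.7 in Get1 +/+ skin. None of the 3 eosinophil genes with a probe set lay above the filter. Epx, Prg2 and Ccr3 had signals of at most 54.2, 56.7 and 38.8. Their log2 changes were -1.50, -1.72 and -0.84, the opposite direction to Mcpt8, and that of Ccr3 was 0.36 without Get1 +/+ replicate 3. The proteases of mucosal mast cells, Mcpt1 and Mcpt2, lay below it too, with signals of at most 61.8 and 56.9.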

How the data were processed

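The authors' deposited table holds linear signal intensities of 45101 probe sets on 6 arrays, made with MAS5 (version not given in the sources used here), per the submitters' processing notes. Total RNA was purified with TRIzol and spin columns and labelled as biotin cRNA from oligo(dT)-primed cDNA, per the labels' protocols. The 2% trimmed mean was 500 on every array, so no further scaling was applied. Here the 64 control probe sets were left out, intensities were turned into log2, and the 22519 of 45037 probe sets with a mean log2 at or above the median were tested with limma 3.58.1 under R 4.3.3. The model had genotype as its term and a trended prior variance (eBayes), tests were two-sided, and p was adjusted over all 22519 by Benjamini-Hochberg. Probe sets with 1 symbol numbered 34945, with several 932 and with none 9160. Of those with 1 symbol, 99.42% had their Entrez identifier in RefSeq. The rule for named genes took the 10 members and Grhl3 and allowed, per list, those with the 3 smallest p. Not all of these are named, and some outside the rule are, such as Kit and Mrgprb1. The list genes that are named were chosen after their values were seen. The members and lists were chosen with earlier results of these data known. The labels do not say that replicates shared a litter or day, and p-values measure the spread between these mice. For the pairing by replicate number in the labels, each mouse was centred on its genotype. Over the tested probe sets the 3 same-numbered pairs then correlated at 0.133, 0.26 and 0.14. All were above 0.1, the least taken here to mean pairs. Correlations of unlike-numbered pairs are not given. By the centring, the covariances of each Get1 -/- mouse with the 3 Get1 +/+ mice cancel out in sum. The unlike-numbered pairs therefore covaried negatively on average. The main fit left the pairing out, and the replicate block was an alternative. Alternatives were other scaling, filters, offset, variance models, array weights, a replicate block, 1 probe set per gene and each array left out. The split by the actin control was chosen after seeing the data.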

Additional observations from a re-analysis of the deposited data

How the results depend on the processing

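With the replicate number as a block, 35 of the 22519 probe sets passed in place of 6, and with median centring 13 did. With each array left out in turn the count ran from 4 to 25, the highest without Get1 +/+ replicate 1. The block changed no call of a mast cell probe set. With it the adjusted p was 0.284 for Tpsab1, 0.459 for Srgn and 0.414 for the brighter Ms4a2 probe set (limma). Tpsab1 without Get1 +/+ replicate 1 (adjusted p = 0.0324, limma) was the only mast cell probe set that passed under any of these settings. The median log2 change over the 12 probe sets ran from 0.08 without Get1 +/+ replicate 3 to 0.38 without Get1 +/+ replicate 2, and from 0.24 to 0.32 under the settings that kept all arrays. Leaving out an array turned the direction of Mcpt4 (-0.59 to 0.095), Tpsb2 on its brighter probe set (-0.28 to 0.20), Cpa3 (-0.0049 to 0.50) and Hdc on the probe set with the smaller change (-0.0499 to 0.24). Within the arrays with a high actin control, Cma1 was at -0.081, Tpsb2 at -0.48, Cpa3 at -0.20, that Hdc probe set at -0.018 and the dim Ms4a2 probe set at -0.23. The cause was not tested. The 3 arrays per genotype limit every interval, and for the 3 dim probe sets the distance from background is unknown.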
